A study of Homo sapiens with 60 samples.

Results

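Metallothioneins are small cysteine-rich proteins that bind zinc and copper, and the genes that make them are switched on when free zinc in the cell rises. The 10 genes described here are 6 metallothionein genes (MT1E, MT1F, MT1G, MT1M, MT1X and MT2A), the zinc exporter SLC30A1, the zinc importer SLC39A10, the zinc-sensing transcription factor MTF1 and the manganese exporter SLC30A10. They were picked by symbol from the 60675 genes of the study's count table, and all 10 were found and passed the filter on low counts, which left 16675 genes tested. RNA was sequenced from HepG2, an established human hepatoma line, after 24 h with 70% ethanol extracts of medicinal plants or with the solvent DMSO alone (vehicle).

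Zinc that enters a cell is taken up by importers of the SLC39 family and removed by exporters of the SLC30 family. MTF1 binds short DNA motifs called metal response elements when zinc is plentiful and raises transcription of the metallothioneins and of SLC30A1, while SLC39A10 is known to be held down by zinc through MTF1. Liver is a main site of metallothionein production, and metallothionein genes there also respond to glucocorticoids and to stress. SLC30A10, although named as a zinc transporter, is best known for moving manganese out of hepatocytes.

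The 60 libraries fell into 25 groups. The vehicle group had 3 libraries, and Coptidis Rhizoma and Zizyphi Fructus had 2 at each of 3 doses. Citri Unshius Pericarpium, Cimicifugae Rhizoma, Bupleuri Radix and Aconiti Lateralis Radix Preparata had 3 at each dose. The formula extract Yijung-tang had 2 libraries a dose and the formula extract Banhasasim-tang had 1, so Banhasasim-tang values have no replicate check. The high, medium and low doses were 280, 56 and 11.2 µg/mL for Coptidis and Bupleuri and 500, 100 and 20 µg/mL for the others. Per the labels' protocols, the top dose was the one that inhibited growth by 20% where this lay under 500 µg/mL. Equal dose names therefore do not mean equal concentrations or equal effects on growth. The labels do not say whether replicates were separate cultures, so each p-value measures only the spread between these libraries.

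Library totals ran from 18015555 to 29549531 counts, with a median of 25174779. Sample codes put Coptidis with Zizyphi, Citri with Cimicifugae, Bupleuri with Aconiti, and Yijung-tang with Banhasasim-tang, each pair in a set of its own and the vehicle in another. The titles and the descriptions of the Coptidis and Zizyphi samples name different batches, so it is not settled whether the vehicle libraries belong to the same batch as theirs. In a comparison with vehicle the sample set cannot be told apart from the extract, and all such comparisons share the same 3 vehicle libraries, whereas the doses of one extract share a set. The 10 hepatocyte markers checked summed to between 28039 and 49180 CPM over the 60 libraries, and 10 markers of other cell types summed to between 588 and 1696 CPM, most of it LYZ. The third Bupleuri low-dose library stood apart from its replicates, with a rank correlation between gene deviation and transcript length of −0.63 (−0.34 to 0.26 in the others). The Banhasasim-tang low-dose library had the lowest total of all 60.

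The 6 metallothionein genes lie together on the long arm of chromosome 16, and their similarity bears on how reads were assigned. Coordinates are GRCh38 with GENCODE 29 annotation. MT2A is ENSG00000125148, chr16:56608199-56609497, plus strand. MT1E is ENSG00000169715, chr16:56625475-56627112, plus strand. MT1M is ENSG00000205364, chr16:56632233-56633986, plus strand. MT1F is ENSG00000198417, chr16:56657694-56660698, plus strand. MT1G is ENSG00000125144, chr16:56666731-56668065, minus strand. MT1X is ENSG00000187193, chr16:56682424-56684196, plus strand. The other members lie elsewhere: SLC30A1 is ENSG00000170385, chr1:211571568-211578742, minus strand. MTF1 is ENSG00000188786, chr1:37809567-37859620, minus strand. SLC30A10 is ENSG00000196660, chr1:219685427-219958647, minus strand. SLC39A10 is ENSG00000196950, chr2:195575977-195737702, plus strand. All 10 are protein-coding genes. The coding sequence of each metallothionein has 186 bases and 61 codons before the stop, of which 20 encode cysteine, and any pair of the 6 is identical at between 88.71% and 95.16% of positions. The 4 coding sequences below are the one that rose with Coptidis (MT2A), the one with the smallest p with Aconiti (MT1F), the one MT1 gene whose promoter was on hand (MT1X) and the one farthest from MT2A (MT1M). Capitals mark bases that differ from MT2A, 16 in MT1F, 14 in MT1X and 19 in MT1M.
MT2A: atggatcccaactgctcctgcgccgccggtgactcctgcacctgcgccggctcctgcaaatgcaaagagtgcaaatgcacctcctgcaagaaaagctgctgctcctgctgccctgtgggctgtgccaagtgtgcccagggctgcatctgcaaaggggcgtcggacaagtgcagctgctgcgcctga
MT1F: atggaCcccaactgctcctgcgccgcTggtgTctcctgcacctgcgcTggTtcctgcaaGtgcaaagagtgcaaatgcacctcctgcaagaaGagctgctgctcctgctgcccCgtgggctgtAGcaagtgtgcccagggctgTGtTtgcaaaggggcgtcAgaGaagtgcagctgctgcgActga
MT1X: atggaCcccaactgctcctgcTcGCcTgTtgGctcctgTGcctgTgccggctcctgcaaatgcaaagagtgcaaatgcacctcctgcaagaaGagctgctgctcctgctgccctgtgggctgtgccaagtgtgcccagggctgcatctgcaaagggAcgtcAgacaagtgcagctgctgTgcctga
MT1M: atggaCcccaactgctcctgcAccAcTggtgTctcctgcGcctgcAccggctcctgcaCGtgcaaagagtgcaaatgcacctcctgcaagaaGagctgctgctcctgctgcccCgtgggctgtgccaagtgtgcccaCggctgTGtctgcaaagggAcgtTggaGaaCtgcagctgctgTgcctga
No stretch of 100 bases, the read length, is identical between any 2 of the 6 members. The authors' counts are estimates that divide ambiguous reads among genes, so values of single metallothioneins are less certain than their sum. MT1X also overlaps the annotated gene AC026461.1 on the same strand and shares 11.34% of its 100-base windows with it. AC026461.1 had 0 CPM in all 60 libraries.

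RefSeq windows (GRCh38.p14) covering the 250 bases before the start of transcription were on hand for 6 of the 10 members, MT2A, MT1X, SLC30A1, SLC39A10, MTF1 and SLC30A10. RefSeq places the starts of MT2A and MT1X inside the span that GENCODE gives these genes. It places that of SLC30A1 upstream of the GENCODE span, so the bases just before the GENCODE start of SLC30A1 were not searched. The core of the metal response element, TGCACNC or TGCGCNC, was searched on both strands. MT2A (chr16:56608334-56608583, plus strand) held 7 cores, MT1X (chr16:56682220-56682469, plus strand) held 4 and SLC30A1 (chr1:211579162-211579411, minus strand) held 1. SLC39A10 and SLC30A10 had more than 1 RefSeq window each, and all were searched. The windows of SLC39A10, MTF1 and SLC30A10 held none, which says only that these letters were not found there. Of 35116 RefSeq windows of the same length, 24.8% held at least 1 core, 0.37% at least 4 and 0.0513% (18 windows) at least 6. The windows with a core are shown because their genes are the textbook targets of MTF1 and yet moved differently with Coptidis. Capitals mark the cores on either strand.
MT2A: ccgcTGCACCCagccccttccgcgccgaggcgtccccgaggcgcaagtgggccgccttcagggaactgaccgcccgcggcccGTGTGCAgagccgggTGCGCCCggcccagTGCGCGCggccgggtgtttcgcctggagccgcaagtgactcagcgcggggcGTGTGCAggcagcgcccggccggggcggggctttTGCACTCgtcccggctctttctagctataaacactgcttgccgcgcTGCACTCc
MT1X: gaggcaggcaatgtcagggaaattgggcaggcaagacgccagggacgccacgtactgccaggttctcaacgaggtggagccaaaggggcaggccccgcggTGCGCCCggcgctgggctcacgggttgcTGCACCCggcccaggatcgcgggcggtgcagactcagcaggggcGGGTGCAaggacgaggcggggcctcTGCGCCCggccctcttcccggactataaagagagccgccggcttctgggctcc
SLC30A1: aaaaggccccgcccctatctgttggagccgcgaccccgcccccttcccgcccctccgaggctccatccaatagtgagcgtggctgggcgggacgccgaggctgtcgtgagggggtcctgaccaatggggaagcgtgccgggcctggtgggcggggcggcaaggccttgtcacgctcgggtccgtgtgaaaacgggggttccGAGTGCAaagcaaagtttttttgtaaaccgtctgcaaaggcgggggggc

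**Figure D1:**
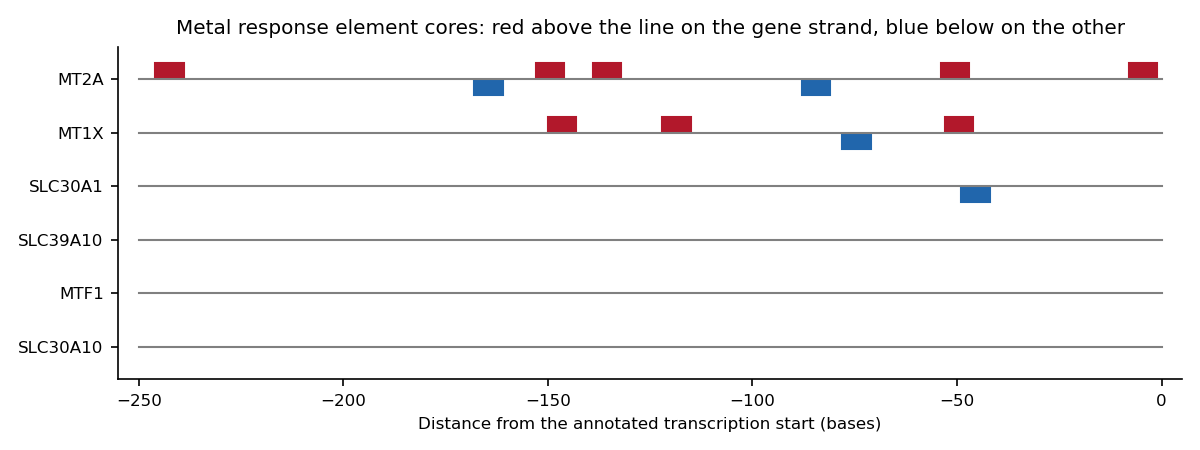
Position of metal response element cores in the 250 bases before the transcription start of the 6 members with a RefSeq window, with distance from the start in bases on the horizontal axis and 1 row per gene. The 7 cores of MT2A run from 246 to 2 bases before the start and the 4 of MT1X from 150 to 47, SLC30A1 has 1, and the other 3 rows are empty.

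In vehicle cells MT2A, MT1E and MT1G were the most abundant members per unit of transcript. Per kilobase of merged exon, MT2A stood at 306 ± 38.7 CPM (SD, n = 3), MT1E at 211 ± 8.08 and MT1G at 129 ± 21.0. MT1X (31.6 ± 2.50), MT1F (29.7 ± 1.60) and SLC30A1 (23.6 ± 0.654) were lower, and the neighbours MT1X and MT1F changed places when the longest transcript was used as the length. SLC30A10, MTF1, SLC39A10 and MT1M were all at 3.00 CPM per kilobase or less. CPM here is the count per 1000000 counts after edgeR's TMM scaling, and it is not divided by length unless stated.

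Comparing the high with the low dose of an extract asks how the members respond to dose within 1 sample set. In 4 of the 7 replicated extracts, Aconiti, Bupleuri, Cimicifugae and Yijung-tang, the high dose lowered all 6 metallothioneins and SLC30A1 and raised SLC39A10. Coptidis also raised SLC39A10 and lowered the 5 MT1 genes, but MT2A, SLC30A1 and MTF1 were higher. Citri changed few members and Zizyphi none. A gene was called changed when its Benjamini-Hochberg adjusted p from edgeR's quasi-likelihood test, over all 16675 genes, was below 0.05.

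Of the 10 members, 1 rose and 8 fell with Aconiti, where 14.6% of all genes were called. With Cimicifugae 1 rose and 7 fell against 7.14% of all genes, and with Yijung-tang 1 rose and 7 fell against 7.29%. In these 3 extracts the share of members called was far above the share of all genes. The members were chosen with earlier results of these data known, and their calls are not separate observations. Group means of any pair of the 6 metallothioneins correlated at 0.94 to 0.99 over the 19 groups without Coptidis and Banhasasim-tang. Bupleuri moved all members, 2 up and 8 down (9 members called without low-dose replicate 3), but 40.2% of all genes were called there. Coptidis likewise moved all members, 4 up and 6 down, against 60.2% of all genes, so for Coptidis the sizes say more than the count. Citri gave 0 up and 2 down (0.78% of all genes), and Zizyphi gave none of the 10 (0.006%, which is 1 gene, ASNS). In Zizyphi MT2A differed by −0.34 on the log2 scale, with a 95% interval of −0.59 to −0.10 that is not adjusted for the number of genes, and the scarce MT1M by −0.50 (−1.03 to 0.02).

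**Figure D2:**
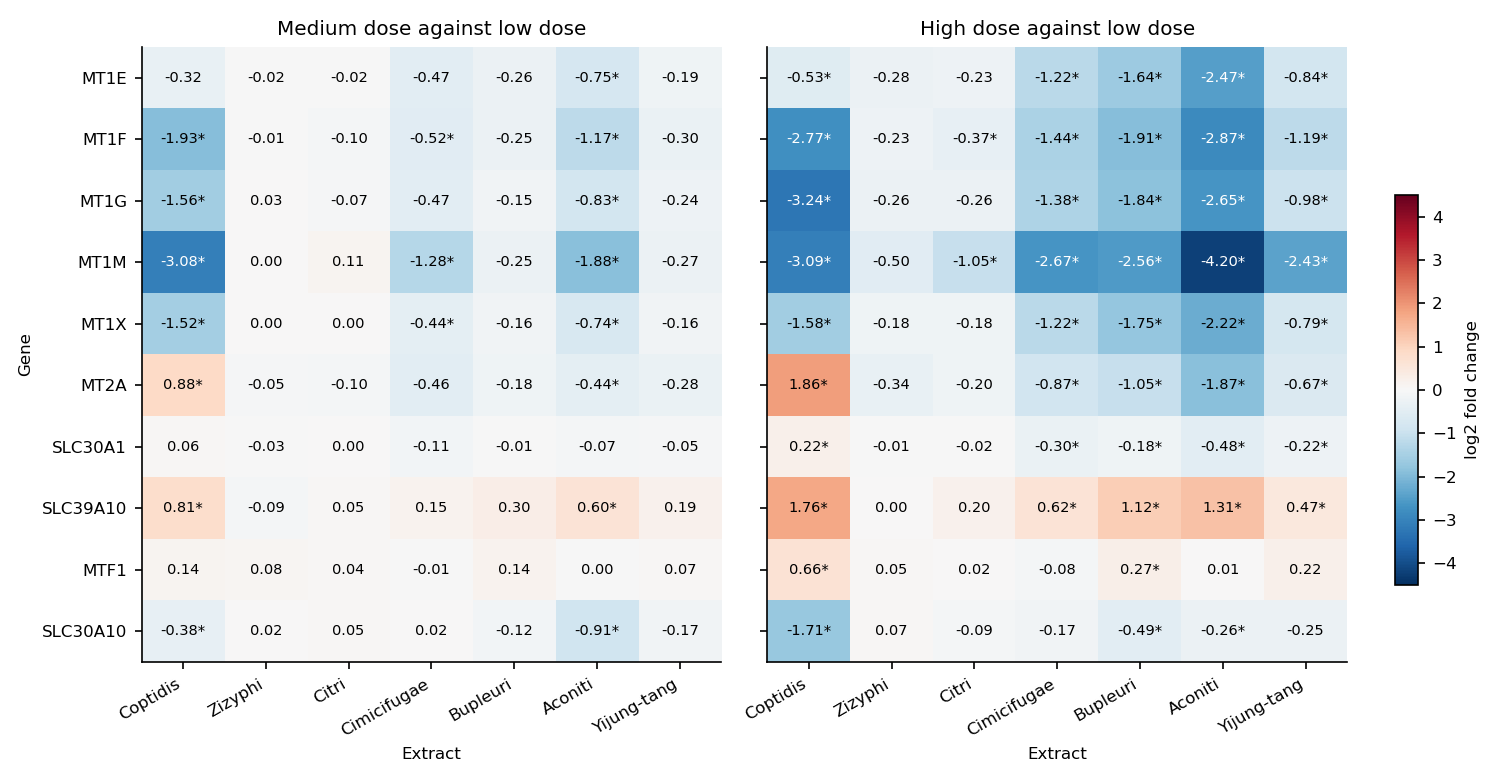
Log2 difference of the medium and the high dose from the low dose of the same extract, for the 10 members (rows) in 7 extracts (columns), with a star where edgeR's adjusted p was below 0.05. The MT1 rows are negative and starred at the high dose of 5 extracts, while MT2A is positive only in the Coptidis columns (high dose 1.86) and SLC39A10 is positive in the 5 extracts where it is starred.

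MT1F, MT1G and MT1M fell furthest with Aconiti and Coptidis. The sum of the listed MT1 genes did not follow this order. Its high-to-low difference was −2.52 with Aconiti, −1.73 with Bupleuri, −1.29 with Cimicifugae and −1.24 with Coptidis. MT1F measured 7.90, 9.21 and 8.91 CPM in the 3 Aconiti high-dose libraries, 27.7, 27.9 and 28.5 at the medium dose and 57.2, 66.6 and 66.0 at the low dose. The doses did not overlap, and each higher dose had the lower values. The high-to-low difference was −2.87 ± 0.11 (adjusted p = 5.08e-23) on the log2 scale with its SE, a 7.30-fold fall with the smallest p of all 16675 genes in that comparison, and the medium dose was already lower by 1.17 (adjusted p = 2.63e-12). MT1X, MT1G and MT1E held the 3rd, 4th and 5th smallest p there. In bulk samples fewer cells of a type and less RNA per cell cannot be told apart.

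MT1G was at 22.9, 26.9 and 23.7 CPM with Aconiti high and 146, 159.5 and 156 with Aconiti low. The groups were far apart, and the fall was 6.29-fold (−2.65 ± 0.12, adjusted p = 1.25e-20). MT1E measured 45.7, 47.7 and 46.9 against 253, 273 and 253 CPM, again without overlap, a difference of −2.47 ± 0.11 (adjusted p = 5.04e-20). MT1X was 14.6, 15.7 and 15.4 CPM at the high, 42.2, 43.3 and 42.5 at the medium and 71.2, 72.9 and 69.7 at the low dose, a difference of −2.22 ± 0.10 (adjusted p = 1.38e-21) between high and low. MT1M is the scarcest member: the Aconiti high-dose libraries held 4, 1 and 3 counts, that is 0.149, 0.0465 and 0.118 CPM, against 1.88, 2.16 and 2.19 CPM at the low dose. Its fitted difference of −4.20 rests on those few counts and is less exact than that of the other members. Transcripts shorter than 1000 bases had a median difference of −0.03 over 366 genes in the same comparison (5th to 95th percentiles −0.59 to 0.72). That class holds MT1E, MT1G, MT1M and MT2A but not MT1F or MT1X.

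With Coptidis, MT1F measured 4.73 and 6.74 CPM at the high, 9.77 and 10.8 at the medium and 35.8 and 43.1 at the low dose. The 3 doses again did not overlap and the high dose was 6.84-fold below the low dose (−2.77 ± 0.15, adjusted p = 7.38e-20). MT1G fell from 97.8 and 105 CPM at the low dose to 28.8 and 39.5 at the medium and 9.67 and 11.8 at the high dose, which was 9.43-fold (−3.24 ± 0.16, adjusted p = 7.54e-21). That was the largest fall of an abundant metallothionein between doses of any extract. MT1X was 12.8 and 15.6 CPM at the high and 12.6 and 16.9 at the medium dose, which overlapped, and 40.5 and 44.4 at the low dose. For MT1X nearly the whole fall was present at 56 µg/mL, with −1.52 ± 0.12 (adjusted p = 1.43e-13) at medium and −1.58 ± 0.13 (adjusted p = 1.21e-14) at high against low. MT1E moved least, at 103 and 130.0 CPM against 163 and 173, with a difference of −0.53 ± 0.13 (adjusted p = 0.000534). MT1M had 6 and 0 counts in the high-dose libraries. Short transcripts as a class had a median of −0.12 in this comparison, with a wide spread (5th to 95th percentiles −2.15 to 2.49).

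Cimicifugae and Bupleuri high doses brought the MT1 genes to similar levels. MT1F was 20.9, 20.1 and 18.7 CPM with Cimicifugae high, 36.4, 39.2 and 36.9 with medium and 55.4, 56.4 and 50.1 with low, and the doses did not overlap (−1.44 ± 0.10, adjusted p = 7.9e-15, high against low). With Bupleuri it was 19.1, 18.5 and 19.0 CPM at the high dose, while the medium (60.3, 59.9 and 57.7) and low doses (58.4, 64.6 and 89.8) overlapped. The fall was therefore seen between 56 and 280 µg/mL, at −1.91 ± 0.10 (adjusted p = 9.86e-20), and the highest of the low-dose values came from low-dose replicate 3, which stood apart. Without that library MT1F differed by −1.71 (adjusted p = 7.53e-22), MT2A by −0.91 (adjusted p = 7.3e-09) and SLC39A10 by 0.91 (adjusted p = 3.48e-16). Among the other MT1 genes of these extracts, the high-to-low differences lay between −1.22 (MT1X, Cimicifugae) and −2.67 (MT1M, Cimicifugae). Short transcripts had a median of −0.22 in the Bupleuri comparison (5th to 95th percentiles −0.93 to 0.91).

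Yijung-tang lowered MT1F from 73.2 and 68.0 CPM at the low dose to 29.9 and 31.4 at the high dose, and the groups did not overlap (−1.19 ± 0.12, adjusted p = 3.74e-10). MT1G measured 189.8 and 174 CPM at the low and 90.9 and 92.6 at the high dose, a difference of −0.98 ± 0.13 (adjusted p = 4.87e-07). In Citri the only called members were MT1F at −0.37 ± 0.09 (adjusted p = 0.0358) and MT1M at −1.05 ± 0.24 (adjusted p = 0.0155). Each of these Citri calls was lost when any 1 of 5 libraries was left out.

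**Figure D3:**
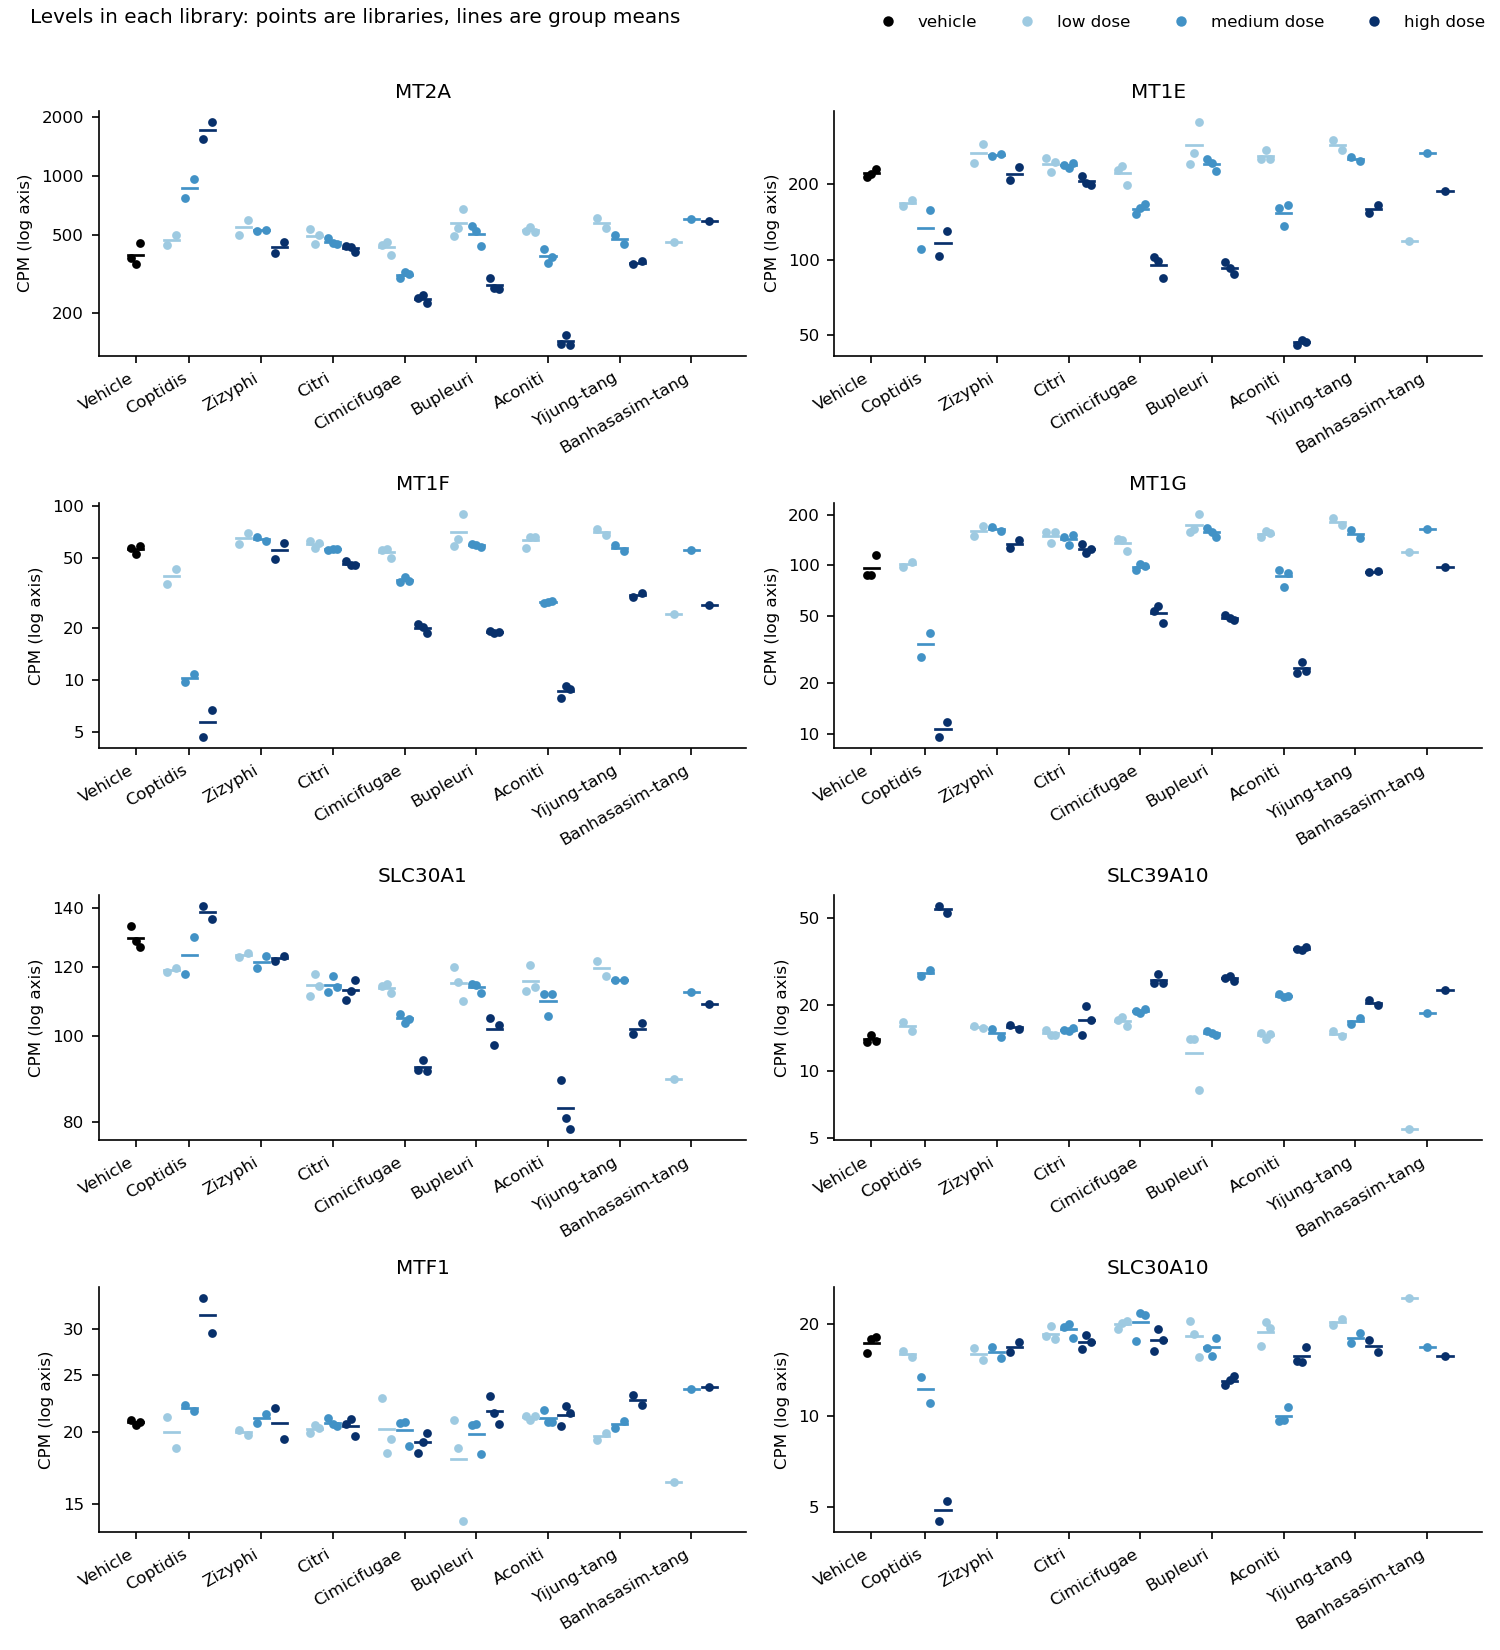
CPM on a log axis in each library (points) with group means (lines) for MT2A, MT1E, MT1F, MT1G, SLC30A1, SLC39A10, MTF1 and SLC30A10, over vehicle and the low, medium and high dose of each extract. MT1F and MT1G step down with dose in Coptidis and Aconiti, where MT2A rises in the first and falls in the second, and SLC39A10 steps up in both.

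MT2A, usually the most abundant metallothionein of a cell, rose with Coptidis. It measured 1553 and 1889 CPM at the high, 771 and 966 at the medium and 444 and 501 at the low dose. No values overlapped between doses, and the high dose was 3.64-fold above the low dose (1.86 ± 0.13, adjusted p = 1.75e-16), the medium dose 1.84-fold (0.88 ± 0.12, adjusted p = 2.38e-07). In the other 4 responding extracts MT2A fell. With Aconiti it was 139.5, 155 and 138 CPM at the high, 424, 361 and 385 at the medium and 523, 549 and 517 at the low dose, a high-to-low difference of −1.87 ± 0.10 (adjusted p = 2.31e-17). With Bupleuri it was 301, 268 and 265 at the high and 496, 545 and 678 at the low dose, a difference of −1.05 ± 0.10 (adjusted p = 3.1e-11). In all 4 extracts MT2A fell by less on the log2 scale than every MT1 gene, for example by 0.87 against 1.22 to 2.67 with Cimicifugae, a comparison of estimates whose difference was not tested for each gene.

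The share of all listed metallothionein genes' counts that came from MT2A gives the same contrast in 1 measure that does not depend on scaling between libraries. It was 47.7% ± 1.57 (SD, n = 3) in vehicle and 57.0% ± 0.716, 81.7% ± 1.13 and 92.0% ± 0.190 at the low, medium and high dose of Coptidis (n = 2 each). At the high dose of Coptidis nearly all metallothionein reads were therefore assigned to 1 gene. Aconiti went from 48.9% ± 0.541 at the low to 59.9% ± 0.860 at the high dose, and Bupleuri high stood at 59.8% ± 0.768. Citri and Zizyphi stayed between 47.5% and 49.3% at every dose.

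**Figure D4:**
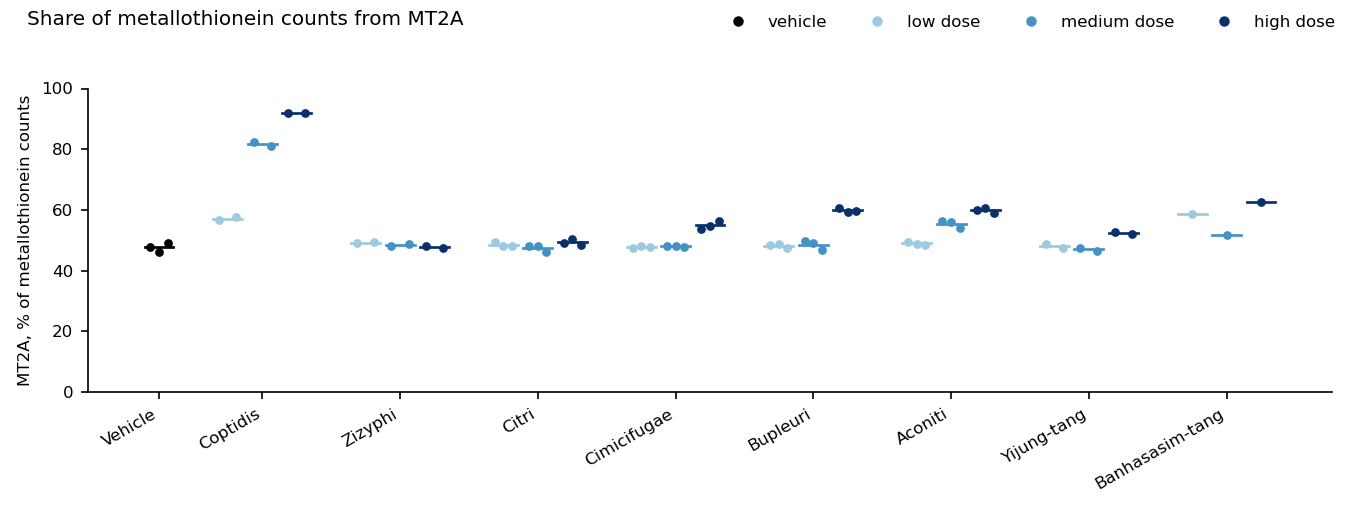
Percent of the summed counts of all listed metallothionein genes that came from MT2A, per library (points) and group. Coptidis climbs from 57.0% at the low to 92.0% at the high dose, and no other extract's group passes 62.5%.

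Because of this, the summed metallothionein level hides opposite movements in Coptidis. The sum of all listed metallothionein genes, of which the 6 members make up nearly all, rose with Coptidis high against low by 1.17 ± 0.12 (adjusted p = 1.11e-11), while the sum of the listed MT1 genes fell by 1.24 (adjusted p = 1.43e-11). With Bupleuri the sum without low-dose replicate 3 differed by −1.22 (adjusted p = 7.02e-13). With that library kept, the sum over all metallothioneins fell in Aconiti (−2.17 ± 0.10, adjusted p = 4.79e-20), Bupleuri (−1.36 ± 0.10, adjusted p = 2.73e-15), Cimicifugae (−1.07 ± 0.10, adjusted p = 2.74e-11) and Yijung-tang (−0.79 ± 0.12, adjusted p = 4.63e-06). Over the 25 groups it spanned 241 CPM in Aconiti high to 1872 CPM in Coptidis high.

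SLC30A1, the exporter of zinc at the plasma membrane and a standard MTF1 target, moved between the high and low doses in the same direction as MT2A in the 5 responding extracts, but by much less. With Aconiti it was 89.3, 80.9 and 78.6 CPM at the high and 112, 120.4 and 114 at the low dose, without overlap, a 1.39-fold fall (−0.48 ± 0.04, adjusted p = 3.89e-12). Cimicifugae gave 91.6, 94.0 and 91.4 against 114, 115 and 112 CPM, also without overlap (−0.30 ± 0.04, adjusted p = 6.26e-07). Bupleuri (−0.18 ± 0.04, adjusted p = 0.000538, and −0.21 without low-dose replicate 3) and Yijung-tang (−0.22 ± 0.05, adjusted p = 0.00289) gave smaller falls, and the Yijung-tang value missed the threshold once high replicate 1 (adjusted p = 0.0627) or low replicate 1 (adjusted p = 0.0786) was dropped. With Coptidis, SLC30A1 was 141 and 136 CPM at the high and 118 and 119.6 at the low dose, a rise of 0.22 ± 0.05 (adjusted p = 0.00025) that came to 0.06 (adjusted p = 0.241) once GC content and length were fitted. Against vehicle this did not hold throughout: with Coptidis high MT2A was higher by 2.12 and SLC30A1 differed by 0.10, which was not called. The windows printed above held 1 core for SLC30A1 and 7 for MT2A. These windows are placed differently against the GENCODE starts, and a link between core number and size of response was not tested. The 2 genes' group means correlated at 0.77 over the 25 groups.

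SLC39A10, which brings zinc into the cell, moved opposite to the MT1 genes. It measured 56.4 and 52.4 CPM with Coptidis high, 27.2 and 28.8 with medium and 16.8 and 15.2 with low. The doses did not overlap and the high dose was 3.38-fold above the low dose (1.76 ± 0.11, adjusted p = 1.66e-18). Aconiti libraries gave 36.0, 35.7 and 36.8 CPM at the high, 22.4, 21.7 and 22.1 at the medium and 14.9, 14.1 and 14.8 at the low dose. These too were separate, with differences of 1.31 ± 0.09 (adjusted p = 1.73e-15) at the high and 0.60 ± 0.09 (adjusted p = 3.27e-06) at the medium dose. Bupleuri high was at 26.6, 27.1 and 25.7 CPM against 14.0, 14.1 and 8.22 at the low dose (1.12 ± 0.09, adjusted p = 1.34e-13), where the lowest value again came from the library that stood apart. Cimicifugae rose by 0.62 ± 0.09 (adjusted p = 1.46e-06). Yijung-tang rose by 0.47 ± 0.11 (adjusted p = 0.00458), which missed the threshold once high replicate 1 (adjusted p = 0.0674) or low replicate 2 (adjusted p = 0.0869) was dropped.

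Across group means on the log2 scale, MT1F and SLC39A10 correlated at −0.70 over 25 groups and at −0.97 over the 19 groups without Coptidis and Banhasasim-tang. MT2A and MT1F correlated at −0.03 over 25 and at 0.96 over those 19 groups. The groups are of 1 cell line, doses of an extract share a sample set, and the sets differ, so these values describe the pattern and carry no p.

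**Figure D5:**
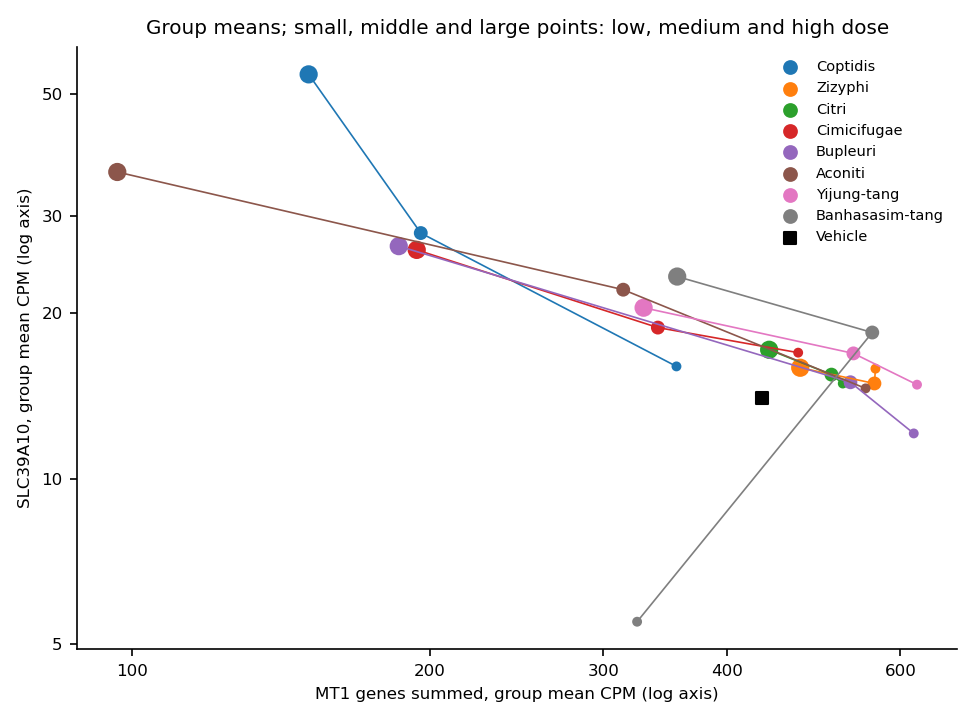
Group means of the summed CPM of the listed MT1 genes (horizontal, log axis) against SLC39A10 CPM (vertical, log axis), with lines joining the doses of an extract. Groups run from vehicle and low doses at the lower right to Aconiti high (96.5 and 36.1 CPM) and Coptidis high (151 and 54.4 CPM) at the upper left, with the single Banhasasim-tang low library alone at the bottom.

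MTF1, the factor that reads out zinc for these genes, kept nearly the same level in most groups. Coptidis high was the exception at 33.9 and 29.6 CPM, against 21.1 and 18.7 at the low dose and 20.9, 20.5 and 20.8 in vehicle. The rise over the low dose was 1.59-fold (0.66 ± 0.10, adjusted p = 1.05e-07). With Aconiti, where all 6 metallothioneins fell, MTF1 differed by 0.01 with a 95% interval of −0.15 to 0.17. Bupleuri gave 0.27 ± 0.08 (adjusted p = 0.00539), but this was 0.13 (adjusted p = 0.155) without low-dose replicate 3, the library that stood apart.

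SLC30A10 group means correlated at −0.80 with MTF1, −0.76 with SLC39A10 and 0.75 with MT1G over the 25 groups. Over the 19 groups without Coptidis and Banhasasim-tang these values were −0.35, −0.44 and 0.40. Coptidis high lowered it to 4.52 and 5.26 CPM, from 16.3 and 15.5 at the low dose, a 3.26-fold fall (−1.71 ± 0.13, adjusted p = 3.86e-15). In Aconiti the medium dose was lowest, with 9.58, 9.68 and 10.6 CPM, against 16.9, 20.3 and 19.4 at the low and 15.1, 15.1 and 16.8 at the high dose. The medium dose overlapped with neither, and it lay 1.88-fold below the low dose (−0.91 ± 0.09, adjusted p = 1.84e-10). The high-to-low difference of −0.26 ± 0.09 (adjusted p = 0.0343) was small and lost its call without any 1 of 4 libraries. Bupleuri high (12.6, 13.1 and 13.5 CPM) was below Bupleuri low (20.5, 18.6 and 15.6 CPM) by 0.49 ± 0.09 (adjusted p = 1.68e-05), and the difference without low-dose replicate 3 was −0.59.

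At the medium dose against the low dose, members were called in 3 of the 7 extracts. Aconiti gave 1 up and 7 down where 10.5% of all genes were called, and Coptidis gave 2 up and 5 down (28.9%). Cimicifugae gave 3 down, MT1F, MT1X and MT1M, among only 9 genes called in all (0.054%). No member was called with Zizyphi (0.006%), Citri (0.006%), Bupleuri (3.18%) or Yijung-tang (0.018%). The Cimicifugae calls were fragile, with 0 to 1 member called when 1 library was left out.

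Extracts of the same set were then compared at the same dose name, which asks whether 2 extracts that share a sample set differ. Cimicifugae and Citri had equal concentrations and replicates. At 500 µg/mL Cimicifugae was lower than Citri in 7 members and higher in 1, SLC39A10, with 4.07% of all genes called. MT1F was 20.9, 20.1 and 18.7 CPM against 48.1, 45.9 and 45.5 with Citri, without overlap (−1.23 ± 0.10, adjusted p = 3.68e-12). At 100 µg/mL all 6 metallothioneins were lower with Cimicifugae, among just 10 genes called (0.06%). The other 4 were GCLM, HMGCS1, SGK1 and CYP1A1, of the glutathione, sterol, glucocorticoid-responsive kinase and dioxin-responsive pathways, named after their values were seen. MT1X had the smallest p of all genes there, with 40.9, 43.9 and 40.8 against 69.7, 64.8 and 66.7 CPM (−0.68 ± 0.09, adjusted p = 2.56e-05). Without Cimicifugae medium replicate 1 the number of metallothioneins called fell from 6 to 2. At 20 µg/mL none was called (0.006%).

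Coptidis with Zizyphi and Bupleuri with Aconiti paired unequal concentrations, so their values stand side by side only. Coptidis at 280 µg/mL and Zizyphi at 500 µg/mL were set beside each other first. MT2A was at 1553 and 1889 CPM with Coptidis, against 407 and 458 with Zizyphi. MT1F was at 4.73 and 6.74 CPM with Coptidis, against 49.5 and 61.5 with Zizyphi. SLC39A10 was at 56.4 and 52.4 CPM with Coptidis, against 16.3 and 15.6 with Zizyphi. The values of all 3 genes were separate between the extracts. With Bupleuri at 280 µg/mL MT1F was at 19.1, 18.5 and 19.0 CPM, against 7.90, 9.21 and 8.91 with Aconiti at 500 µg/mL. MT2A was at 301, 268 and 265 CPM with Bupleuri, against 139.5, 155 and 138 with Aconiti. Aconiti had the lower levels of both.

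Against vehicle, the high doses gave much the same picture, with the limit on sample sets given above. Coptidis had 3 members higher and 6 lower (67.5% of all genes called), Bupleuri 1 and 8 (38.9%), Aconiti 1 and 7 (23.2%) and Cimicifugae 1 and 7 (22.2%). Yijung-tang had 1 and 5 (17.3%), Citri 2 and 2 (14.2%) and Zizyphi 1 and 0 (3.63%). Vehicle libraries measured 380.4, 358 and 454 CPM for MT2A, 57.3, 52.7 and 58.4 for MT1F and 13.6, 14.7 and 13.7 for SLC39A10. MT2A with Coptidis high was 4.34-fold above them (2.12 ± 0.11, adjusted p = 2.57e-20), and MT1F 9.74-fold below (−3.28 ± 0.14, adjusted p = 1.06e-23). SLC39A10 with Coptidis high was 3.89-fold above (1.96 ± 0.10, adjusted p = 3.56e-22).

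The low doses were not equal to vehicle. MT1G moved in most extracts, and its vehicle libraries measured 88.1, 87.7 and 115 CPM, while the Aconiti low libraries measured 146, 159.5 and 156 and the Yijung-tang low libraries 189.8 and 174. Low doses of 6 of the 7 replicated extracts were called higher, by 0.49 to 0.91 on the log2 scale, while Coptidis was at 97.8 and 105 CPM. Of all genes, 17.1% were called higher with Coptidis low, 11.8% with Bupleuri, 8.38% with Citri, 5.51% with Aconiti, 2.95% with Cimicifugae, 1.73% with Zizyphi and 1.2% with Yijung-tang. MT2A was called higher in 5 of the 7, by 0.32 (Citri) to 0.54 (Yijung-tang), and MT1X in 4. The MT2A calls with Zizyphi, Citri, Aconiti and Yijung-tang were each lost when 1 library was left out (adjusted p up to 0.225, 0.171, 0.0561 and 0.185). SLC30A1 went the other way, called lower in 5 of the 7, with differences of −0.12 to −0.19 on the log2 scale. All of these SLC30A1 calls were lost when edgeR was run with no filter on low counts (adjusted p = 0.0605 to 0.327). Once GC content and length were fitted, SLC30A1 differed by −0.002 (Coptidis), −0.066 (Citri), −0.065 (Aconiti) and 0.013 (Bupleuri), none of them called. The SLC30A1 call with Cimicifugae low was kept in that fit. Of all genes, 16.1% were called lower with Coptidis low, 10.5% with Bupleuri, 7.56% with Citri, 4.38% with Aconiti, 3.15% with Cimicifugae, 1.07% with Zizyphi and 0.486% with Yijung-tang. A fall from the low to the high dose therefore starts, in several extracts, from a low-dose level above vehicle. These comparisons share the vehicle libraries, and treatment cannot be told apart from sample set there.

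Banhasasim-tang, with 1 library per dose, gave 593, 602 and 463 CPM of MT2A at the high, medium and low dose. MT1F was 27.0, 55.4 and 24.1 CPM. The low-dose library, with the lowest total, also had the lowest SLC39A10 of all groups, at 5.50 CPM, and the highest SLC30A10, at 24.4 CPM. These 3 libraries show no ordered fall of MT1F with dose. Yijung-tang shares the set and the concentrations, and its MT1F was 29.9 and 31.4 CPM at 500 µg/mL, 59.7 and 55.0 at 100 µg/mL and 73.2 and 68.0 at 20 µg/mL. With 1 Banhasasim-tang library per dose that pair has no test.

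Other zinc, copper and stress genes were read from lists of related genes, and their counts in high against low stand beside the 60.2% of all genes called with Coptidis, 40.2% with Bupleuri, 14.6% with Aconiti, 7.14% with Cimicifugae and 7.29% with Yijung-tang. Of 13 further metallothionein genes and pseudogenes, only MT1A had enough counts to test, and with Aconiti high it was lower than vehicle by 0.85 (adjusted p = 0.00999). Of 11 tested SLC39 importers other than SLC39A10, high-dose Coptidis raised 2 and lowered 7 against the low dose, while Cimicifugae raised 2 and lowered none. SLC39A14, an importer of zinc and iron in liver, was lower with Coptidis high than vehicle by 1.10 on the log2 scale. SLC39A4, the intestinal zinc importer, was higher with Cimicifugae high than vehicle by 0.85 and with Aconiti high by 0.79. Of 5 tested SLC30 exporters other than the members, Coptidis high raised 1 and lowered 2 against the low dose, a share close to that of all genes, and none was called with Aconiti or Cimicifugae. Of 11 tested copper-handling genes Coptidis raised 1 and lowered 7, while Aconiti raised 1 and lowered 1.

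Some of the other genes known to respond to metals and oxidants rose in the same extracts. Of 12 listed and tested, 10 were higher and 1 lower with Coptidis high against low, 7 were higher and none lower with Cimicifugae, and 7 higher and 1 lower with Aconiti. Bupleuri raised 8, Yijung-tang 7 and Citri 4 of the 12, with none lowered, and Zizyphi changed none. HMOX1, which degrades heme, rose by 1.05 with Coptidis, 1.42 with Cimicifugae and 0.95 with Aconiti, high against low. GCLM, a subunit of the glutathione-making enzyme, rose by 1.88, 1.27 and 1.01 in the same 3 comparisons. In those 3 comparisons the MT1 genes fell, and MT2A fell in all but that of Coptidis. Among 9 tested glucocorticoid receptor targets Coptidis raised 3 and lowered 4 against the low dose, with TSC22D3 higher by 2.10 and SGK1 lower by 2.00, so the list had no common direction. Of 10 hepatocyte markers, high against low, 9 fell with Coptidis, 7 with Bupleuri, 7 with Yijung-tang, 2 with Aconiti and 2 with Cimicifugae, while 1 rose with Yijung-tang, 1 with Cimicifugae and 2 with Aconiti. Their summed level was 28039 to 28852 CPM with Coptidis high against 44505 to 48149 at the low dose, 40257 to 41203 against 46144 to 47958 with Yijung-tang and 39134 to 44406 against 46629.5 to 49063 with Cimicifugae. With Aconiti it was 41680 to 43839 CPM at the high against 46119 to 47983 at the low dose, without overlap. With Bupleuri it was 40183 to 42495 against 35077 to 48551 CPM, which overlapped. The 10 markers of other cell types summed to 635 to 694 CPM with Coptidis high against 1573 to 1641 at the low dose, where LYZ fell by 1.38 on the log2 scale, and 3 of the 10 had 0 counts in Coptidis high. The part of these markers in the metallothionein changes was not tested.

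By the likeness of group means (Pearson correlation over 25 groups, among 10658 genes above 5 CPM), the genes closest to the mean of the 6 metallothioneins were GPC6 (0.87), GPC3 (0.82) and PDLIM1 (0.81). For SLC39A10 they were FBXO30 (0.93), ATP13A3 (0.93) and ERCC4 (0.92), and for SLC30A10 they were SLC22A7, ACSF2 and IDH2 (each 0.96). MTF1 ran closest to CHUK (0.93), OTUD4 (0.92) and CEP170 (0.92). SLC30A1 had looser neighbours, CWC27 (0.84), STK39 (0.81) and FCHSD2 (0.80). All these rankings include the Coptidis groups, where MT2A and the MT1 genes moved in opposite directions. They also include the Banhasasim-tang groups of 1 library each.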

How the data were processed

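Per the submitters' processing notes, the authors used RSEM 1.3.3 and STAR 2.7.3a with GRCh38, and also FastQC 0.11.9 and Trim Galore 0.6.5. Per the labels' protocols, libraries were directional with paired reads of 100 bases. The authors deposited RSEM expected counts per gene, of which 8.747% in the columns used are not whole, and these were rounded. Of 267 columns in the table, 60 were used and 207, which match no sample here, were not. Counts of the 57 replicated libraries (22 groups) were fitted once with edgeR 4.0.16 (limma 3.58.1, R 4.3.3): filterByExpr, TMM scaling and the robust quasi-likelihood test, with 35 residual degrees of freedom and a biological coefficient of variation of 6.14%. Adjusted p-values are Benjamini-Hochberg over 16675 genes in each of 44 comparisons. The SE is the size of the log2 difference divided by the square root of F. Summed metallothioneins (6 members and 13 others listed) entered a fit as 1 feature in place of their genes. DESeq2 1.42.0 was one alternative. The test was checked on simulated data.

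Members, lists and tests were chosen with earlier results of these data known. Genes outside the members are named by a rule: list members called at the high dose against both vehicle and the low dose, at 1 CPM or more, with log2 differences of at least 0.5. Same-numbered replicates of Cimicifugae high and Citri high deviated together (correlations 0.142 to 0.356 over 3 pairs), so their numbers may pair them. Between the same extracts the correlations were −0.113 to −0.074 at the medium and −0.144 to 0.067 at the low dose. With the replicate block, no member call changed in Cimicifugae high against Citri high. Of 48 replicate pairs none agreed within sampling noise (chi-square over degrees of freedom 2.02 to 90.8). Among the members only MT1M, at a few counts in some libraries, is limited by depth.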

Additional observations from a re-analysis of the deposited data

Results flagged for a closer look

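In 3 pairs of replicated extracts that share a sample set, the dose response of MT2A and of the summed MT1 genes differed between the 2 extracts by a test of the difference itself, an interaction contrast in edgeR's fit. Its values are log2 differences of high minus low dose, the first extract minus the second, with adjusted p over all genes tested. The fourth pair, Yijung-tang and Banhasasim-tang, could not be tested with 1 Banhasasim-tang library per dose. The MT2A response to Coptidis exceeded that to Zizyphi by 2.21 ± 0.17 (adjusted p = 4.44e-14), while the response of the summed MT1 genes was more negative, at −0.984 ± 0.17 (adjusted p = 5.65e-06). The response of MT1E alone was not called different there, at −0.25 (adjusted p = 0.255). Cimicifugae was more negative than Citri for MT2A, at −0.669 ± 0.14 (adjusted p = 0.00541), and for the MT1 sum, at −1.04 ± 0.14 (adjusted p = 3.93e-06). Bupleuri was less negative than Aconiti for MT2A, at 0.829 ± 0.14 (adjusted p = 1.85e-05), and for the MT1 sum, at 0.783 ± 0.14 (adjusted p = 3.32e-05). Without Bupleuri low-dose replicate 3, left out after seeing the data, these were 0.969 (adjusted p = 2.57e-06) and 0.948 (adjusted p = 1.11e-06). Of these 3 pairs, doses in µg/mL were equal only for Cimicifugae and Citri. For SLC39A10 the response differed between Coptidis and Zizyphi by 1.75 (adjusted p = 6.51e-13), and it was not called different between Cimicifugae and Citri, at 0.42 (adjusted p = 0.112). For Bupleuri minus Aconiti it was −0.19 (adjusted p = 0.315) with all libraries and −0.39 (adjusted p = 0.00081) without Bupleuri low-dose replicate 3. Whether this difference is called therefore depends on that 1 library.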

How the results depend on the processing

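DESeq2, RLE scaling, library totals alone, no filter, GC and length offsets, separate fits and the replicate block were tried on the members and their sum. Of 484 values each, 438 kept their direction and side of the threshold with separate fits, 441 with no filter, 452 with GC and length offsets, 476 with the block, 478 with totals alone and 481 with RLE scaling, and 463 of 474 did with DESeq2. Leaving MT2A out of the sum, chosen after seeing the data, turned its direction for Coptidis: −1.52 high and −1.14 medium against vehicle, −1.24 high and −0.86 medium against low, and −1.65 against Zizyphi high. This follows from which genes are summed. For the Yijung-tang sum against vehicle, no filter gave −0.25 (adjusted p = 0.00176) and the MT1 genes alone −0.39 (adjusted p = 0.00972), both now called. With no filter the high-to-low sum was also called in Zizyphi (−0.29, adjusted p = 0.0103) and Citri (−0.22, adjusted p = 0.0113). SLC30A1 in Bupleuri low against vehicle became 0.013 (adjusted p = 0.879) with GC and length offsets. Members called changed from 1 to 0 in Zizyphi against vehicle with a separate fit, from 0 to 1 in Zizyphi high against low with no filter, and from 2 to 1 with DESeq2 and to 4 with no filter in Citri high against low. The cause was not tested. Leaving out 1 library gave 0 to 1 member for Citri high against low, 1 to 3 for Citri and 0 to 1 for Zizyphi against vehicle. The replicate block gave 7 more calls and 1 fewer, none of them in Cimicifugae high against Citri high. In no comparison is it settled whether numbers pair the samples. Correlations of same-numbered replicates were, for example, 0.494 for Zizyphi high and low and −0.138 for Coptidis medium and low. A crossed block, added after seeing the data, gave 4843 genes in Coptidis medium against low (4822 without a block) and 2 in Yijung-tang (3 without). Scaling by totals alone shifted the median of all genes by −0.112 in Coptidis high against vehicle.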
